A study of Mus musculus with 56 samples.

Results

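The 10 genes followed here mark macrophages and the classical complement pathway: *C1qa*, *C1qb*, *C1qc*, *Tyrobp*, *Fcer1g*, *Csf1r*, *Ptprc*, *Cd68*, *Lyz2* and *Ctss*. They were taken by name, and each matched 1 of the 47069 gene identifiers measured in 56 single-cell (SC) libraries of cultured mouse pituitary. Cells came from pituitaries of randomly cycling female C57BL/6 mice aged 10 to 12 weeks, 5 pituitaries being pooled into a sample, and had received no treatment. They were cultured for 4 days, trypsinized, kept in RNA-Best (which stabilizes RNA within intact cells), passed through a 10-μm filter and captured on a Fluidigm C1 circuit, where each cell is lysed in a chamber of its own before SMART-Seq v4 amplification. Since the labels separate the wells by nothing but their position, all 56 were treated as 1 sample and no test was run. The question was whether any well carried the genes together, as a macrophage would, and how their levels lay over the plate.

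Macrophages live in most tissues, the pituitary included, where they clear debris. C1q, the first component of the classical complement pathway, is built from 3 chains that *C1qa*, *C1qb* and *C1qc* encode side by side in the genome, and tissue macrophages are its main source. *Tyrobp* and *Fcer1g* encode small adaptors that pass on signals from surface receptors, *Csf1r* encodes the receptor for the growth factor that keeps macrophages alive, and *Ptprc* encodes CD45, the phosphatase on all white blood cells. *Cd68* encodes a glycoprotein of endosomes and lysosomes, *Lyz2* a lysozyme that digests bacterial walls and *Ctss* the lysosomal protease cathepsin S.

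A pair of technical features bears on all values. Gene counts per well ran from 357 to 12563266 (median 711525), and ERCC spike-ins, synthetic RNAs added to each chamber, took 0.144% to 74.9% of all counts. The 29 wells in plate columns 1 to 3 and 7 to 9 (the first column set) had a median of 1050009 gene counts, and the 27 wells in columns 4 to 6 and 10 to 12 (the second column set) had 234987. A spike-in share over 30% was found in 5 wells of the first set and 15 of the second. Wells C10 and C11 were the most alike of the 1540 pairs (Pearson's r of their log2 levels across genes, which are not independent, was 0.97, against 0.92 for the next pair and a median of 0.61), so counts were repeated without C11. Levels are CPM, that is, counts scaled to 1000000 gene counts per well without spike-ins, and a gene was called detected at 1 CPM. In a well with under 1000000 gene counts 1 count passed this limit. *Prl*, the prolactin gene, was at 1 CPM or more in all 56 wells, which checks the pituitary label.

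No well carried all 10 genes. At 1 CPM, 6 wells had none of them, 19 had 1, 11 had 2, 5 had 3, 6 had 4, 2 had 5, 1 had 6, 4 had 7 and 2 had 8. Thus 20 of 56 wells (35.7%, exact 95% interval 23.4% to 49.6%, counting error only) had 3 or more, and 9 wells (16.1%, interval 7.62% to 28.3%) had 5 or more. All 9 wells lay in the second column set and had a spike-in share of 31.7% to 66.1%, and the most genes in a well of the first set was 4. At a higher limit of 100 CPM no well had more than 3 of the genes, which was reached in E6 and F12. The heat map of the 10 genes by well shows a block of 6 genes in high-spike wells of the second set, beside *Cd68* on both sides.

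**Figure D1:**
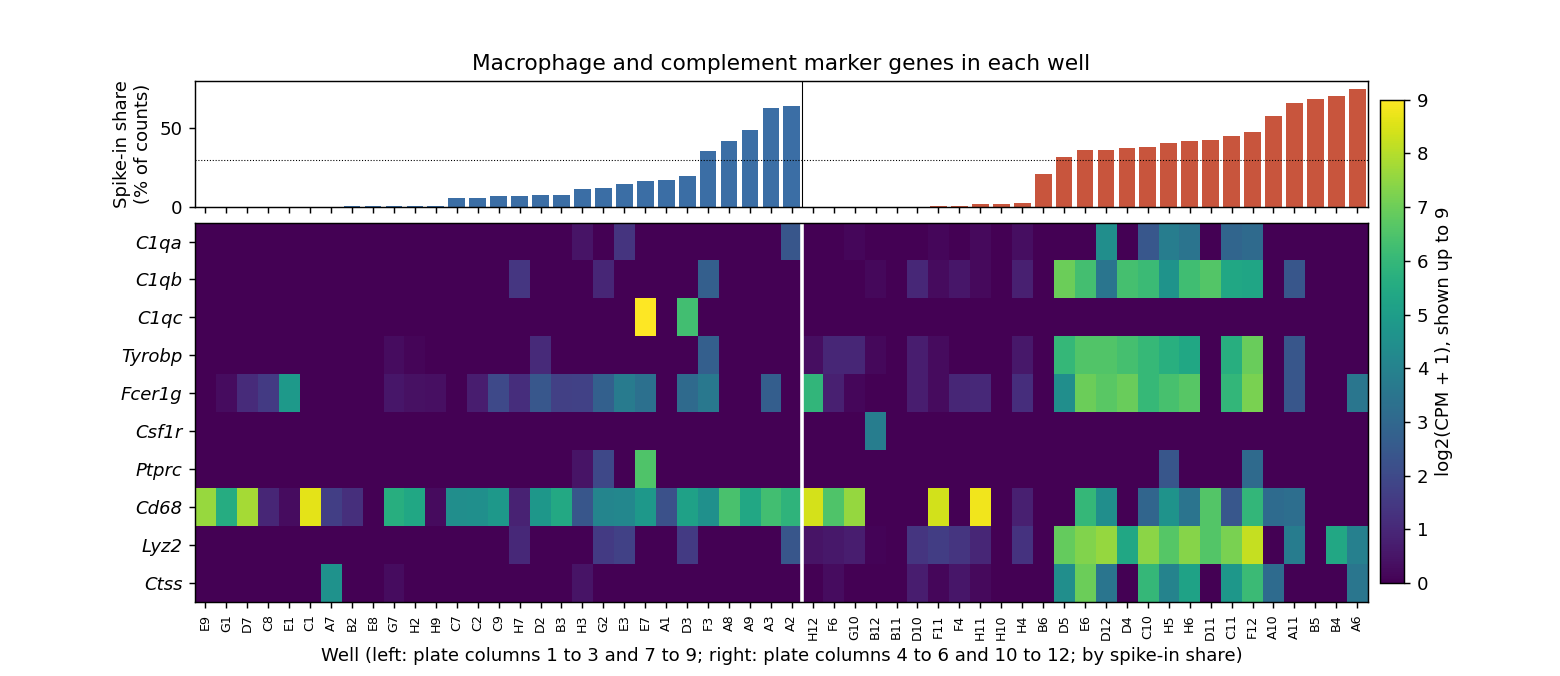
Level of each member gene, as log2(CPM + 1) by colour (values over 9 are shown as 9), in the 56 wells, with the spike-in share of each well as bars above and a dotted line at 30%. Wells are ordered by spike-in share within plate columns 1 to 3 and 7 to 9 (left, 29 wells) and 4 to 6 and 10 to 12 (right, 27 wells). The 9 wells with 5 or more genes are all on the right, and *C1qc* is seen in 2 wells, both on the left.

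The C1q genes were the first group. They lie on the minus strand of chromosome 4 (GRCm38, GENCODE M21), *C1qb* at chr4:136880129-136886187, *C1qc* at chr4:136889804-136893065 and *C1qa* at chr4:136895917-136898803. *C1qb*, the B chain, was detected in 13 wells, *C1qa*, the A chain, in 8 and *C1qc*, the C chain, in 2. The A and B chains were found together in 6 wells, all of the second set, but *C1qc* was never found with either, so the 3 chains occurred together in 0 of 56 wells, which allows a share of up to 5.36%.

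*C1qb* was detected in 2 of 29 wells of the first set (6.90%, interval 0.846% to 22.8%) and 11 of 27 of the second (40.7%, interval 22.4% to 61.2%). In the 9 wells with 5 or more genes its level was 4.26 CPM in A11, 10.4 in D12, 23.9 in H5, 38.6 in F12, 39.7 in C11, 68.6 in C10, 75.1 in H6, 78.2 in E6 and 126 in D5. The highest value in the first set was 5.53 CPM, from 1 count in F3. Only A11 of these 9 wells fell within the range of the first set. D12 lay above it on 1 count as well, among 96288.5 gene counts against 180773 in F3. D5, the highest, held 6 counts. The 9 wells were picked by detection of the members themselves, so high levels in them follow in part from that choice. Over all 27 wells of the second set the median of *C1qb* was 0.469 CPM. *C1qa* was low throughout, with 23 counts in total, at most 6 in a well (H5) and at most 20.8 CPM (D12). *C1qc* behaved apart from its neighbours. Of its 588 counts, 568 (96.6%, 5108 CPM) were in E7 and 20 (76.5 CPM) in D3, both in the first set, where *C1qa* and *C1qb* had 0 counts. E7 also held 10 of the 17 counts of *Ptprc*, with *Prl* at 116813 CPM, *Gh* (growth hormone) at 91677 CPM and *Pomc* (the precursor of ACTH) at 39462 CPM.

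In the 15 high-spike wells of the second set, *C1qb* had 96 counts and *C1qa* 16 among 2445160 gene counts, while *C1qc* had 0, which allows up to 1.23 CPM. The pooled levels of *C1qb* and *C1qa* there were 39.3 and 6.54 CPM.

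Bases upstream of the start were read for the members whose 250-base window overlapped no annotated exon and held a match to GAGGAA, the core of the site of PU.1, the macrophage transcription factor that *Spi1* encodes. They are shown because *C1qb* and *Ctss* went with the second column set and *Cd68* did not. Sequences are from RefSeq (GRCm38.p6), 5′ to 3′ on the strand of the gene and ending next to its start, and capitals mark GAGGAA. *C1qb* is chr4:136886201-136886450, *Cd68* is chr11:69666171-69666420 (both minus strand) and *Ctss* is chr3:95526536-95526785 (plus strand).
C1qb: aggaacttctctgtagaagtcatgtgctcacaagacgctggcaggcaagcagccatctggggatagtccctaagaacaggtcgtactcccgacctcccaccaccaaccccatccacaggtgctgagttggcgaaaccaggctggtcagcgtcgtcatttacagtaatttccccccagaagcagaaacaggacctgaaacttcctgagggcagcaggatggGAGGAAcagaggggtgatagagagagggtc
Cd68: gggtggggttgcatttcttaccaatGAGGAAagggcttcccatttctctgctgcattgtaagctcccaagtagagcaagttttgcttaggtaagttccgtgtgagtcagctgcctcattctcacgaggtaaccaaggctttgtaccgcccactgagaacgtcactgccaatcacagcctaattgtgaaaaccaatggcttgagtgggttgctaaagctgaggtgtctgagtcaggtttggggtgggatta
Ctss: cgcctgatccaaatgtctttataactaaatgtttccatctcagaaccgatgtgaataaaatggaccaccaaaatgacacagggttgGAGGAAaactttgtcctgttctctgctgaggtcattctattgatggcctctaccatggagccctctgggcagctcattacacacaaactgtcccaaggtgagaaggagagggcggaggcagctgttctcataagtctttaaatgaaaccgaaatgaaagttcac
The match began 30 bases before the start in *C1qb*, 225 in *Cd68* and 164 in *Ctss*. GAGGAA or its reverse complement TTCCTC was in 5 of the 8 windows that the promoter table holds for members, and in 23.3% of the 32851 windows of all genes. No match was in the windows of *Lyz2*, the member with the largest difference between the sets, and *Fcer1g*, or in 1 window of *Ptprc*. For *C1qa*, *Tyrobp* and *Csf1r* no window was available. The matches therefore do not separate members that went with the second set from the others. A match is a description of letters and not a binding site.

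The adaptor genes formed the second group. *Tyrobp* encodes DAP12, which serves receptors such as TREM2, and *Fcer1g* encodes the common gamma chain of Fc receptors. Both were detected together in 12 of 56 wells (21.4%, interval 11.6% to 34.4%), that is, in every well with *Tyrobp*. *Fcer1g* was found without *Tyrobp* in 16 further wells.

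*Tyrobp* was detected in 2 of 29 wells of the first set (interval 0.846% to 22.8%) and 10 of 27 of the second (37.0%, interval 19.4% to 57.6%). Its level in the 9 wells with 5 or more genes was 4.26 CPM in A11, 40.0 in H6, 48.5 in C11, 50.0 in H5, 63.0 in D5, 64.2 in C10, 93.5 in D12, 93.8 in E6 and 123 in F12. The highest value in the first set was 5.53 CPM (F3, 1 count), and again only A11 overlapped with it. The same choice of wells applies, and the median of *Tyrobp* over all 27 wells of the second set was 0.496 CPM. *Tyrobp* had 4 counts in all 29 wells of the first set and 139 in the second.

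*Fcer1g* was detected in the same number of wells in each set, 14 of 29 (48.3%, interval 29.4% to 67.5%) and 14 of 27 (51.9%, interval 31.9% to 71.3%), but at different levels. At 10 CPM it remained in 3 wells of the first set and 11 of the second. In a well with under 100000 gene counts 1 count passed this limit, as in A6 and D5. Such wells were 0 in the first set and 10 in the second. The highest level of *Fcer1g* was 28.0 CPM (E1) in the first set and 147 CPM (F12) in the second. A pair of deep wells held many reads of *Fcer1g* with little or nothing of the other C1q and adaptor genes: H12, with 222 counts of *Fcer1g* and 1 of *Tyrobp*, and E1, with 127 and 0. *Tyrobp* lies at chr7:30413760-30417585, 127 bases from *Hcst*, and *Fcer1g* at chr1:171229572-171234365. *Hcst* had 0 counts in E1 and H12.

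The receptor genes were also rare. *Csf1r* (chr18:61100598-61132149) had 93 counts, all in B12 (13.2 CPM, 7043040 gene counts), and 0 in the other 55 wells. *Hmgxb3*, which overlaps *Csf1r* on the opposite strand, had 734 of its 1216 counts in the same well, and without strand information reads of the overlap cannot be assigned to one or the other. In the 15 high-spike wells of the second set *Csf1r* had 0 counts, which allows up to 1.23 CPM. *Ptprc* (chr1:138062861-138175708) was detected in 4 wells, with 10 counts in E7, 3 in G2, 2 in H5 and 1 in F12.

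Among the lysosomal genes, *Lyz2* was the most frequent in the second column set. It was detected in 5 of 29 wells of the first set (17.2%, interval 5.85% to 35.8%) and 17 of 27 of the second (63.0%, interval 42.4% to 80.6%), a difference of 45.7 percentage points. Its level in the 9 wells with 5 or more genes was 12.8 CPM in A11, 97.8 in H5, 116 in D5, 146 in C11, 156 in E6, 164 in H6, 170 in C10, 192 in D12 and 293 in F12. All 9 were above the highest value of the first set, 4.35 CPM (A2, 1 count), but they were picked by detection of these same genes. Over all 27 wells of the second set the median of *Lyz2* was 2.08 CPM. *Lyz2* (chr10:117277331-117282321) has a close copy, *Lyz1*, and their transcripts were 96.0% identical over 1262 aligned bases. Its counts were not whole in 14 of 27 wells with a count, and *Lyz1* had 14.5 counts in total and passed 1 CPM in 6 wells, all of the second set.

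*Ctss* (chr3:95526786-95556403) was detected in 1 of 29 wells (3.45%, interval 0.0873% to 17.8%) and 10 of 27 wells (37.0%, interval 19.4% to 57.6%). The 1 well of the first set was A7, which held 170 of the 253 counts, at 23.3 CPM among 7294070 gene counts and with no count of *C1qa*, *C1qb*, *Tyrobp*, *Fcer1g* or *Lyz2*. In the second set its highest level was 125 CPM (E6, 8 counts). A processed pseudogene, *Hmgb1-ps5*, overlaps *Ctss* and had 4.76 counts in A7.

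*Cd68* (chr11:69664213-69666153) stood apart from the rest. It was detected in 24 of 29 wells of the first set (82.8%, interval 64.2% to 94.2%) and 15 of 27 of the second (55.6%, interval 35.3% to 74.5%), and its median level was 26.4 and 6.64 CPM. Its 7 wells at 100 CPM or more were H11 (449 CPM, 2585 counts), C1 (396 CPM, 2711 counts), H12 (345 CPM), F11 (331 CPM, 3135 counts), D7 (221 CPM), E9 (195 CPM) and G10 (189 CPM). All had a spike-in share of 2.06% or less, and each had at most 1 other member gene at 1 CPM. In the 9 wells with 5 or more genes *Cd68* was between 0 (D5) and 62.6 CPM (E6). Spearman's rho of *Cd68* with *C1qa*, *C1qb*, *Tyrobp*, *Fcer1g*, *Lyz2* and *Ctss* over the 56 wells, which share differences in depth, was between -0.09 and 0.16. With *Eif4a1*, whose 3′ end lies 783 bases from it on the same strand, rho was -0.03.

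The plate columns were compared across all genes detected in at least 3 wells. Of the 8 members among the 16016 such genes, 4 were detected in a share of wells at least 25 percentage points higher in the second set: *C1qb* (33.8 points), *Tyrobp* (30.1), *Lyz2* (45.7) and *Ctss* (33.6). Over all 16016 genes this was so for 6.44%. *C1qb*, *Tyrobp* and *Ctss* were in 2, 2 and 1 wells of the first set and passed the filter of 3 wells only through the second. Most members called higher in the comparisons below did so too, and the split was chosen with earlier results known. These counts of members are therefore a description and not a measure of enrichment. In the other direction only *Cd68* of the 8 passed the margin, at -27.2 points, against 12.3% of all genes. *C1qa* (15.3 points), *Fcer1g* (3.58) and *Ptprc* (0.511) were within it, and *C1qc* and *Csf1r* were in too few wells. The median difference of the 8 members was 22.7 points, and that of all genes was -6.13 points.

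**Figure D2:**
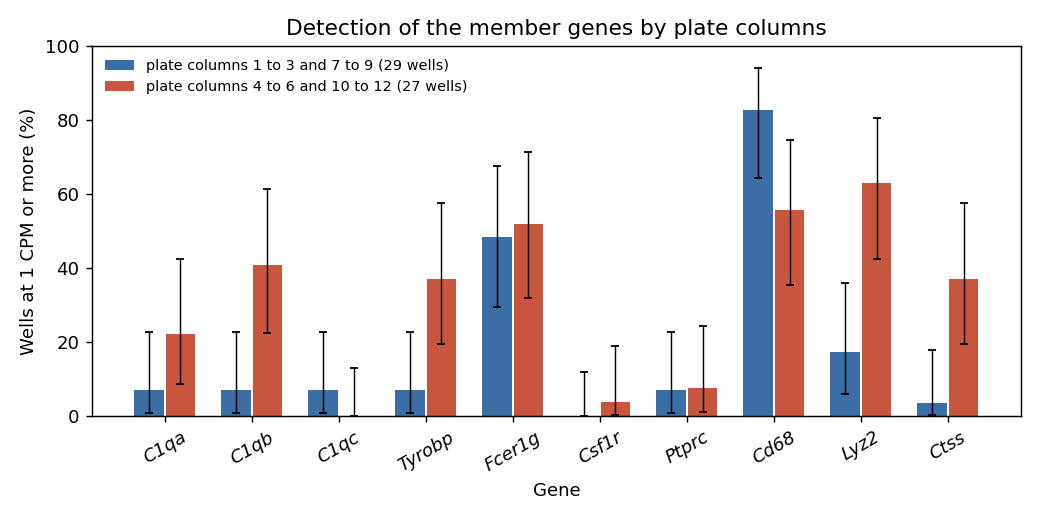
Share of wells (%) in which each member gene was at 1 CPM or more, in plate columns 1 to 3 and 7 to 9 (29 wells) and 4 to 6 and 10 to 12 (27 wells), with exact 95% intervals over wells as bars. *Lyz2* is at 17.2% and 63.0% and *Ctss* at 3.45% and 37.0%, the 2 genes whose intervals do not overlap, and *Cd68* is the one frequent gene that is lower on the right.

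On the scale of mean log2(CPM + 1) the difference between the second and the first set was 3.13 for *Lyz2*, 2.15 for *C1qb*, 2.14 for *Tyrobp*, 1.66 for *Ctss* and 1.44 for *Fcer1g*. At least 1 higher were thus 5 of 8 members and 13.8% of all genes. For *Cd68* the difference was -1.09, and a difference of -1 or less was one that 10.0% of all genes reached in that direction. Within the wells of at least 1000000 gene counts the difference of *Cd68* had the other sign, at 1.14. The SD over wells within the second set was between 2.42 (*Ctss*) and 3.19 (*Cd68*) for these genes and exceeded each of the differences. Within the first set, where the medians of *C1qb*, *Tyrobp*, *Lyz2* and *Ctss* were 0, it was between 0.534 (*Tyrobp*) and 2.38 (*Cd68*). These SDs describe the spread of wells and not the error of a difference of means.

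Because depth and spike-in share differed between the sets, the comparison was repeated within narrower ranges of both, chosen after the data had been seen. Among the 20 wells with a spike-in share over 30%, *C1qb*, *Tyrobp*, *Fcer1g*, *Lyz2* and *Ctss* were at least 25 points more frequent in the second set, 5 of 7 members against 22.7% of 10159 genes, and *Cd68* was less frequent, which 26.7% of the genes were. Here *Lyz2* was detected in 1 of 5 and 13 of 15 wells, and *C1qb* in 1 of 5 and 11 of 15. The 36 wells with a spike-in share of 30% or less did not show this at 1 CPM. *C1qb*, *Tyrobp* and *Ctss* were each in 1 of 24 wells of the first set and 0 of 12 of the second, *Lyz2* was in 4 and 4, *Fcer1g* in 12 and 3 and *Cd68* in 19 and 5. Of the 3 members in at least 3 of these wells 0 were more frequent in the second set by the margin, against 5.05% of 14996 genes, and *Fcer1g* and *Cd68* were less frequent, against 14.1%. The median depth of these wells was 1325180 gene counts in the first set and 4099280 in the second, where 1 CPM thus took more reads. At 1 count *Lyz2* was in 3 and 8 wells, *Tyrobp* in 3 and 7, *C1qb* in 2 and 6, *Ctss* in 3 and 5 and *C1qa* in 2 and 4. *Fcer1g* (17 and 8), *Cd68* (23 and 6), *C1qc* (2 and 0) and *Ptprc* (3 and 0) were less frequent in the second set. The share of all genes at this limit was not counted.

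Among the 15 wells with 100000 to 500000 gene counts, *C1qa*, *C1qb*, *Tyrobp*, *Lyz2* and *Ctss* passed, 5 of 8 members against 27.5% of 11083 genes, and 0 members were lower, against 18.6%. With so few wells a margin of 25 points was reached by many genes.

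Wells with at least 1000000 gene counts were examined at 1 count, since 1 CPM there takes more than 1 read. At 1 CPM *Lyz2* was in 2 of 15 wells of the first set and 4 of 10 of the second, *C1qb* and *Ctss* in 1 and 0 each and *Tyrobp* in 0 and 0. At 1 count, of the 15 wells of the first set (median 4485890 gene counts) and 10 of the second (median 4444810), *Lyz2* had 1 count or more in 2 and 8, *Tyrobp* in 2 and 7, *C1qb* in 2 and 6, *Ctss* in 3 and 5 and *C1qa* in 1 and 4. These 5 of 7 members passed the margin upward, against 16.8% of 16547 genes, and *Cd68* (14 of 15 and 6 of 10) passed it downward, against 9.00%. The levels were low, with *Lyz2* at most 2.08 CPM (F11) and *C1qb* at most 0.990 CPM (D10) in these wells of the second set. The most members in a deep well was 7, in F11, on 2 counts of *C1qb*, 2 of *Tyrobp*, 2 of *Fcer1g*, 1 of *C1qa*, 1 of *Ctss*, 19.7 of *Lyz2* and 3135 of *Cd68*.

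**Figure D3:**
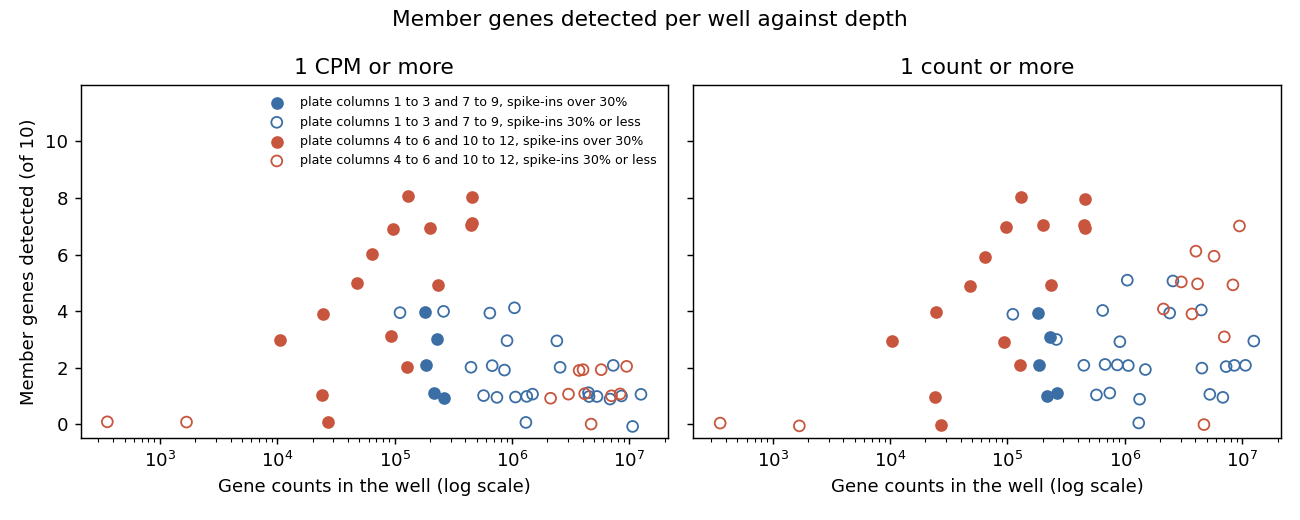
Number of the 10 member genes detected in each well against its gene counts (log scale), at 1 CPM (left) and at 1 count (right), coloured by plate columns and filled where spike-ins were over 30% of counts (points are shifted slightly up or down to separate them). At 1 CPM the wells with 5 or more genes are filled points of the second set with 47588 to 460210 gene counts, and at 1 count deep wells of that set with up to 7 genes appear as well.

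The 6 genes that were shared among the high-spike wells, *C1qa*, *C1qb*, *Tyrobp*, *Fcer1g*, *Lyz2* and *Ctss*, were summed, a choice made after their values were seen. Their pooled level was 312 CPM in the 15 high-spike wells of the second set and 6.50 CPM in the 5 of the first. It was 6.35 CPM in the 10 deep wells of the second set and 4.76 CPM in the 15 of the first, where E1 held 127 (*Fcer1g*) and A7 170 (*Ctss*) of the 341 counts, and H12 held 224.5 of the 333 counts of the second. Without these wells it was 2.23 CPM in 9 deep wells of the second set and 0.729 CPM in 13 of the first.

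Within the 15 wells the sum varied with the spike-in share. In the 5 wells with a share of 50% or more (A6, A10, A11, B4 and B5; 58.0% to 74.9%), it was 0 to 41.4 CPM on 11.3 counts in all. In the other 10 wells (31.7% to 47.9%) it was 191 to 679 CPM, with a median of 385 CPM. The ranges did not overlap, but their facing ends rested on few reads. The 41.4 CPM was 1 count in B4 and the 191 CPM was 2 counts in D11, among 10462 gene counts. Wells of similar depth were found in both: B4 had 1 count of the 6 genes among 24176 gene counts, B5 had 0 among 26952 and D4 had 8 among 24726. Whether spike-in share, plate position or the cells set this difference cannot be told apart here.

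The make-up of the 6 genes was set out in the wells where several were found together. In C10, C11, H5, H6 and F12, which held 84.7 to 196 counts of the 6 genes each, *Lyz2* took 34.6% to 44.3%, *Fcer1g* 14.8% to 29.2%, *Tyrobp* 9.45% to 18.2%, *C1qb* 5.68% to 17.7%, *Ctss* 5.38% to 14.3% and *C1qa* 1.02% to 4.62% (reads, not divided by gene length). D12, on 41.5 counts, had all 6 genes with *Lyz2* at 44.6% but *C1qb* and *Ctss* at 2.41% each, E6 (37 counts) had *Ctss* at 21.6% and no *C1qa*, and D5 (16.5 counts) had *C1qb* at 36.4%. In H12, E1 and A7, by contrast, 98.9%, 100% and 100% came from 1 gene. C10 and C11 held 31 and 18 counts of *C1qb*, 29 and 22 of *Tyrobp*, 29 and 28 of *Fcer1g*, 76.8 and 66 of *Lyz2*, 28 and 12 of *Ctss* and 2 and 3 of *C1qa*. Without C11 the wells with 5 or more genes were 8 in place of 9.

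**Figure D4:**
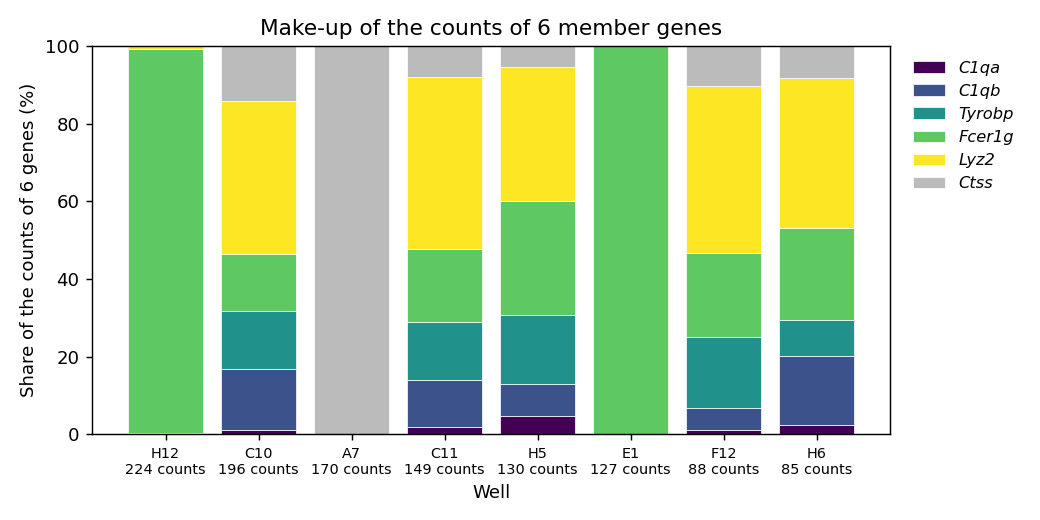
Share (%) of each gene in the summed counts of *C1qa*, *C1qb*, *Tyrobp*, *Fcer1g*, *Lyz2* and *Ctss*, in the 8 wells with the most such counts, whose number is under each well. C10, C11, H5, F12 and H6 show a mixture led by *Lyz2*, and H12, E1 and A7 are made of a single gene almost entirely.

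Per kilobase of exon, the mean level over the 56 wells was 47.9 CPM for *C1qc*, 45.2 for *Cd68*, 21.2 for *Lyz2*, 20.5 for *Fcer1g*, 18.0 for *Tyrobp*, 10.7 for *C1qb*, 5.37 for *Ctss*, 1.19 for *C1qa*, 0.103 for *Ptprc* and 0.0408 for *Csf1r*. The SD over wells exceeded the mean for each of the 10, so no neighbours in this order differed beyond their spread, and the first place of *C1qc* rested on E7. By the median per kilobase only *Cd68* (15.0 CPM) and *Fcer1g* (1.13 CPM) were above 0.

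Whether a well read as a macrophage was examined with 7 further markers, *Aif1*, *Adgre1*, *Cx3cr1*, *Cd14*, *Itgam*, *Spi1* and *Laptm5*, added to the 10. The most of these 17 at 1 CPM was 11, in F12 and H5. In the 9 wells with 5 or more members *Spi1* was found in 6, *Aif1*, a calcium-binding protein of macrophages, in 3 and *Cd14*, a receptor for bacterial lipopolysaccharide, in 2. *Adgre1* (F4/80), *Cx3cr1*, *Itgam* (CD11b) and *Laptm5* had 0 counts in all 9 wells, as had *C1qc* and *Csf1r*. The 17 markers together reached 34.0 to 841 CPM in these wells. *Prl* was at 126092 to 293754 CPM, *Gh* at 12467 to 202245 CPM, *Pomc* at 1076 to 6973 CPM and *Pou1f1*, the transcription factor of lactotropes and somatotropes, at 115 to 478 CPM. The 17 markers were thus minor beside the hormone genes in each of these 9 wells, and no well is called a macrophage here. G2, of the first set, had the highest summed level of the other macrophage genes (5620 CPM), with *Cd53*, a tetraspanin of white blood cells, at 3623 CPM, *Laptm5* at 1687 CPM and the Fc receptor gene *Fcgr2b* at 240 CPM, beside *Ptprc* at 2.86 CPM and *Cd3g*, a T cell receptor chain, at 2358 CPM. It had 4 of the 10 members at 1 CPM, 0 counts of *C1qa*, *C1qc*, *Tyrobp*, *Csf1r* and *Ctss*, and *Prl* at 115110 CPM.

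Wider lists of genes were counted in the same way, by the number detected in at least 3 wells. The number more or less frequent in the second set by 25 points was counted too. Over all 16016 genes 6.44% were more and 12.3% less frequent by this margin. The lists, here and in the next paragraphs, are short beside these shares, so their counts are not read as results about a list. Of 28 other macrophage and microglia genes 16 were detected in 3 wells, 0 passed the margin in either direction, and their median difference was 8.56 points. *Cd74*, the invariant chain of antigen presentation, was found in 26 wells and *Ms4a7* in 13. *Spi1* was found in 0 wells of the first set and 6 of the second, while *Pf4* and *Mrc1* were each found in 5 and 0 and *Laptm5* in 3 and 0. Of 22 other complement genes 10 were detected and 0 passed, with *Clu* (clusterin) in 55 wells, *Cd59a* in 48 and *Cr1l* in 44. Each of these 3 encodes a regulator that restrains complement. *C3ar1*, the receptor for C3a, was found in 0 and 6 wells, and *Cfb*, complement factor B, in 6 and 0, *C2* in 5 and 1 and *Cd46* in 3 and 0.

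Of 14 partners of the adaptors and of Csf1r, 4 were detected and 0 passed, with *Csf1*, a ligand of Csf1r, in 22 wells, *Csf2ra* in 6 and *Fcgr3* in 5. The 18 other lysosomal genes were all detected, 0 higher and 1 lower, with the cathepsins *Ctsb* and *Ctsz* in 56 wells and *Cst3*, a cathepsin inhibitor, in 55, against 22 wells for *Lyz2* and 11 for *Ctss*.

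Markers of other cells were counted too, and no difference between lists was tested. Of 12 neutrophil and mast cell genes 3 were detected (*Kit* and *Csf3r* in 6 wells each, *Mpo* in 4), and of 15 lymphocyte genes 2 (*Lck* in 9, *Trbc2* in 3, beside *Cd3g* in 2 wells), with 0 passing the margin. Erythroid genes were widespread (4 of 6 detected, *Hbb-bs* in 44, *Hbb-bt* in 42 and *Hba-a1* in 41 wells), and 0 passed. Of 5 endothelial genes 4 were detected (*Pecam1* in 16, *Emcn* in 11 and *Cdh5* in 10 wells) and 1, *Plvap*, was more frequent in the second set (29.6 points), with a median difference over the list of 8.81 points. Of 8 fibroblast and pericyte genes 3 were detected (*Col1a2* in 35, *Dcn* in 4 and *Rgs5* in 3 wells), of which *Col1a2* was less frequent (-27.7 points). Of 7 folliculostellate and stem cell genes 5 were detected (*Vim* in 31, *Aldh1a2* in 15 and *Cdh1* in 8 wells) and 0 passed. Of 7 pituitary hormone genes 6 were detected, and *Lhb* (-38.3 points) and *Tshb* (-50.7 points) were less frequent in the second set.

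Finally, the genes most like each member were found by Spearman's rho of log2(CPM + 1) over the 56 wells, among 12646 genes detected in at least 6 wells. The points share depth and many zeros, so the values are a description. For *Lyz2* they were *Snx29* (0.78), *Rxrg* (0.77) and *Stmn4* (0.77), and for *C1qb* *Kcnk12* (0.81), *Zdhhc7* (0.81) and *Gm43366* (0.81). For *Tyrobp* they were *Nrsn2* (0.80), *Drp2* (0.76) and *Gm6970* (0.76), and for *Ctss* *Cd72* (0.73), *Bvht* (0.71) and *A330074K22Rik* (0.71). These 12 genes were each detected in more wells of the second set than of the first, for example *Stmn4*, a stathmin of neurons, in 20 and 2 wells. Their choice by likeness to members with that difference makes this likely. None of the 12 was in the macrophage lists.

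For *C1qa* the most alike genes were *Filip1l* (0.77), *Spi1* (0.77) and *Ifi213* (0.74), and for *Fcer1g* *Cd74* (0.70), *Rbpj* (0.70) and *Atg9a* (0.66). Of these, *Spi1* and *Cd74* were in the list of other macrophage and microglia genes. For *Cd68* they were *Cd274* (0.64), *Xpnpep1* (0.61) and *Aptx* (0.60). These 3 were found in more wells of the first set, as *Cd68* was, which their choice by likeness also makes likely. Among members the highest values were 0.77 for *C1qb* with *Lyz2* and 0.69 for *C1qb* with *Tyrobp*. The same coefficient with the spike-in share was 0.42 for *Lyz2*, 0.32 for *C1qb*, 0.22 for *Ctss*, 0.14 for *Tyrobp* and -0.15 for *Cd68*, and its part in the likeness of these genes was not tested.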

How the data were processed

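SC RNA-seq libraries of 56 wells of 1 kind of primary mouse pituitary culture were analyzed. The deposited values are estimated counts, unscaled, in a single table of genes and spike-ins. Of those above 0, 33.5% were not whole because reads had been divided between features. The submitters' processing notes name STAR 2.5.1b, featureCounts 1.5.0-p1 and mm10, and the annotation release and strand setting of these libraries are not given in the sources used here. Without molecular identifiers a count is a read, not a molecule. Intervals (exact Clopper-Pearson, 95%) and limits for a count of 0 (3 counts of the total) cover counting error only. The depth of each well sets its precision: 1 count is 1 CPM at 1000000 gene counts.

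From these counts CPM was computed over gene rows without the 92 ERCC spike-ins, and logs are log2(CPM + 1). Identifiers were matched without their version to GENCODE M21 (46488 matched), which gave positions and exon lengths. No well was removed, doublets were not called, and no test was run. The members, the lists, the split by plate columns and the ranges of spike-in share and depth were chosen with earlier results of these data known. The genes named were the 10 members, the 3 genes of each further list found in the most wells, the 3 genes most like each member detected in at least 6 wells, *Prl*, *Gh* and *Pomc* in wells with 5 or more members, and genes overlapping or copying a member, of which some values are not reported here. *Pou1f1*, *C3ar1*, *Cfb*, *C2*, *Cd46*, *Pf4*, *Mrc1*, *Laptm5*, *Cd53*, *Fcgr2b*, *Cd3g*, *Plvap*, *Lhb*, *Tshb*, nearby genes and single wells were named after their values were seen.

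Alternatives changed the detection limit (1 count, 10 or 100 CPM), the wells, the depth (thinning to 100000 counts), the CPM total, the margin and the pseudocount. The steps were tested on simulated counts. Python 3.11.15 with numpy 2.4.6, pandas 2.3.3, scipy 1.17.1, biopython 1.88 and matplotlib 3.10.9 was used.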

Additional observations from a re-analysis of the deposited data

How the results depend on the processing

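The difference between plate columns moved with the spike-in share of the wells, the detection limit and the depth. Of the 4 members more frequent by 25 points in columns 4 to 6 and 10 to 12, only *Lyz2* kept a positive difference under each setting. It fell below the margin in some, with 16.7 points at the least. With wells of a spike-in share of 30% or less *C1qb*, *Tyrobp* and *Ctss* were at -4.17 points each at 1 CPM, but at 41.7, 45.8 and 29.2 points at 1 count. With wells of at least 1000000 gene counts *C1qb* and *Ctss* were at -6.67 points at 1 CPM, but at 46.7 and 30.0 points at 1 count. Among members whose difference of mean log2 over all wells was at least 1 in size, 4 values changed sign. In wells of a spike-in share of 30% or less they were -0.40 for *Fcer1g* and -0.059 for *Ctss*. In wells of at least 1000000 gene counts they were -0.16 for *Ctss* and 1.14 for *Cd68*. Smaller differences changed sign too, such as that of *C1qa* (0.634 over all wells, -0.0043 with a spike-in share of 30% or less). Wells with 3 or more of the 10 genes were 20 at 1 CPM, 32 at 1 count, 12 at 10 CPM, 2 at 100 CPM, 9 after thinning to 100000 counts, 10 with only wells of 100000 to 500000 gene counts, 6 with a spike-in share of 30% or less and 2 with 1000000 counts or more. Wells with 5 or more were 9, and 17 at 1 count, 0 at 100 CPM and 0 in each of the last 2 sets of wells. *Tyrobp* and *Fcer1g* occurred together in 12 wells, in 20 at 1 count, 1 at 100 CPM, 6 after thinning, 7 with wells of 100000 to 500000 counts, 1 with a spike-in share of 30% or less and 0 with 1000000 counts or more. The most genes in a well at 100 CPM, 3, was 7 at a limit of 10 CPM, 1 at 1000 CPM, 1 with spike-ins in the total, 1 in wells of at least 1000000 counts and 1 in wells of a spike-in share of 30% or less. The 4 members more frequent there by 25 points were 1 at 100 CPM, against 16.5% of all genes, 1 at a margin of 40 points, against 2.14%, 0 with a spike-in share of 30% or less, against 5.05%, and 1 with 1000000 counts or more at 1 CPM, against 14.9%. The 3 C1q chains were together in 0 wells under each of these settings. *Cd68*, less frequent there by 27.2 points, was 4.47 points more frequent at 100 CPM, where 3 wells of the first and 4 of the second set remained. The cause was not tested.

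Of 140 differences in detection of single members 119 stayed within the interval of the reported one. Of 120 differences of mean log2, 109 stayed within the spread of the wells, that is, within 1 SD. Both bounds were wide: a change of *C1qa* from 15.3 to -4.17 points counted as staying. Rarely detected members could hardly leave these bounds, so the totals do not measure how stable the results are. No paired analysis was possible because the labels give no groups to pair. All wells come from 1 kind of culture, 10 wells had under 100000 gene counts, and reads are not molecules. For a gene at 0 in a well, absence and a level below detection cannot be told apart.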
